A study of Homo sapiens with 36 samples.

Results

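The subject here is the set of genes that set 2 MCF-10A lines carrying a short hairpin against ATR apart from lines grown alike with hairpins against other DNA damage kinases. The lines shATR-3 and shATR-4 were each compared with 3 other lines. For shATR-3 these were shATM-1, shCHK1-3 and shCHK2-2, and for shATR-4 they were shATM-3, shCHK1-4 and shCHK2-1. A gene was counted when both comparisons passed an adjusted p of 0.05 in limma with the same sign. Of 11048 genes tested, 22 were counted. Among them 10 (0.0905% of the genes tested) were higher in both ATR lines than in their matched lines, and 12 (0.109%) were lower. These 22 genes (0.199%) were chosen by their log2 signal in the same 2 comparisons, so their levels are a description and carry no test.

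MCF-10A is a non-transformed human mammary epithelial line. Every line carried a lentiviral hairpin stably: shATR-3 and shATR-4 against ATR, shATM-1 and shATM-3 against ATM, shCHK1-3 and shCHK1-4 against CHEK1, and shCHK2-1 and shCHK2-2 against CHEK2. Other groups in the study were sh53BP1-1 and sh53BP1-2 (against TP53BP1), shControl with a scrambled hairpin, and wild type cells without one. All groups were grown alike: 200000 cells were plated on a 10 cm dish in MCF-10A medium and collected 48 h later, with no damaging agent named in the labels. Messenger RNA was measured on Illumina expression BeadChips, with 3 arrays for each of the 12 groups. The 3 arrays of a group are labelled biological replicates, but a hairpin is represented by a single stable line. Array-based p-values therefore measure the spread between cultures of a line, not between independently made lines.

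ATR is a protein kinase that is recruited by its partner ATRIP to single-stranded DNA coated with replication protein A, as forms at stalled replication forks. Once activated by TOPBP1 or ETAA1, it phosphorylates the kinase CHK1 (gene CHEK1), which restrains CDC25 phosphatases and so slows entry into mitosis and the firing of new origins. ATM and CHK2 (gene CHEK2) form the neighbouring branch that answers double-strand breaks. In dividing epithelial cells ATR also acts without added damage, because replication itself produces its substrate.

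For the lower genes KDELR3, EFCAB14 and GOLT1B, the 250 bases before the annotated start are shown, from RefSeq GRCh38.p14 and read 5′ to 3′ on the gene's strand. KDELR3 and EFCAB14 are shown because they had all 3 ATR arrays below all 9 matched arrays in both comparisons. GOLT1B, like KDELR3, encodes a protein of traffic between the endoplasmic reticulum and the Golgi. Capitals mark the letters CCAAT, the letters CCACG and the letters TGACGTG on either strand. The KDELR3 window lies at chr22:38467846-38468095 on the plus strand, the EFCAB14 window at chr1:46719115-46719364 on the minus strand and the GOLT1B window at chr12:21501539-21501788 on the plus strand.
KDELR3: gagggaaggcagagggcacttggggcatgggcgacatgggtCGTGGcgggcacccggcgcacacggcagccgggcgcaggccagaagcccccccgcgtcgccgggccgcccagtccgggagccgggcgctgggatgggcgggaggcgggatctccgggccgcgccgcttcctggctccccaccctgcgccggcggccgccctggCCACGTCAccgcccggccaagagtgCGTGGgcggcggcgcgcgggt
EFCAB14: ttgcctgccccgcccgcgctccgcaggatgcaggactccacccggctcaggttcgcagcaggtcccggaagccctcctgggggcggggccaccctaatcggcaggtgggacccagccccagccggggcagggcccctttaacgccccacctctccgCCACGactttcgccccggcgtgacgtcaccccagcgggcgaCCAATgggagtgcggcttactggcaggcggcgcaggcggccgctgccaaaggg
GOLT1B: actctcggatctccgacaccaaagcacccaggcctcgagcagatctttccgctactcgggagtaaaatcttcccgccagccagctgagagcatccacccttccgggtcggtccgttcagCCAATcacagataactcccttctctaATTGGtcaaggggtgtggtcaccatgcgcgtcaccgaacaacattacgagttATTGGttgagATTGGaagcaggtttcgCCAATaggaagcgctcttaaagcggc
The KDELR3 window held 3 copies of CCACG, of which 1 overlapped its TGACGTG. The EFCAB14 window held 1 CCAAT and 1 CCACG, and the GOLT1B window held 5 copies of CCAAT. Such windows were found for 17 of the 22 genes. CCAAT occurred in 7 of those 17 and in 9021 of all 27305 promoter windows. CCACG occurred in 10 of the 17 and in 9087 of all windows. TGACGTG occurred in KDELR3 alone among the 17 and in 466 of all windows, which is 1.71%. TTCCCGC occurred in 2 (GOLT1B and SPARC) and in 5.59% of all windows. A match is a string of letters and not a shown binding site.

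The knockdown of ATR could not be read from these arrays. ATR had 3 probes, and none was above background (detection p under 0.01) on any of the 6 ATR arrays. Over all 36 arrays these probes were above background on 0, 2 and 0 arrays. The lines are therefore named by their labels. Detection was similar elsewhere: between 35.9% and 37.8% of probes were above background on the ATR arrays, within the range of 33.5% to 38.3% over the 24 arrays of the 8 kinase lines. Mean signal lay between 486 and 677 intensity units, and replicates of a line correlated at 0.984 to 0.996. The basal mammary markers KRT5, KRT14, ITGB4 and CDH3 were above background on all 24 arrays. Of 5 endothelial markers, 5 were above background on none, and of 6 fibroblast markers, 4 were on none while COL1A1 was on 1 array and COL1A2 on 2. Of 7 immune markers, PTPRC, CD3D and CD3E were on none, MS4A1 on 1, LYZ on 6, and CD68 and CD14 on all 24. In RNA from whole cultures, fewer cells of a type and less RNA per cell cannot be told apart.

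The matching of lines was itself read from the arrays, because the 8 kinase lines fall into 2 expression states that cut across the targeted genes. The root mean square log2 difference between line means over all genes was 0.212 to 0.224 from shATR-3 to its matched lines, against 0.453 to 0.564 to the 4 lines of the other state. From shATR-4 it was 0.260 to 0.324 to its matched lines and 0.504 to 0.597 to the other state. The mean distance of shATR-3 to its matched lines was 0.218, against 0.245 to 0.257 for the other lines of that state. For shATR-4 it was 0.290, and for the other lines of its state it ran from 0.286 to 0.304. Of the 4 lines of each state, shATR-3 was thus the nearest to the others and shATR-4 was nearer than 2 of its matched lines.

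Taken singly, shATR-3 differed from its matched lines in 173 genes (1.57% of those tested; 82 higher and 91 lower). Line shATR-4 differed from its own in 888 genes (8.04%; 565 higher, which is 5.11%, and 323 lower). For the other kinase lines, compared in the same way, these numbers were 722 to 1012 in the state of shATR-3 and 1172 to 1923 in that of shATR-4. Besides the 22 genes with the same sign, 38 genes (0.344%) passed both comparisons with opposite signs. Opposite signs were found in 65 genes for the ATM lines, 140 for the CHEK1 lines and 118 for the CHEK2 lines. By the same rule, 238 genes (2.15%) were counted for the ATM lines, 69 (0.625%) for the CHEK1 lines and 113 (1.02%) for the CHEK2 lines. The ATM genes were mostly higher (192 higher and 46 lower), and the CHEK2 genes mostly lower (19 higher and 94 lower). For CHEK1 there were 16 higher and 53 lower. The counts of the 4 targets use the same arrays as each other's reference, so they are not independent and their order was not tested.

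**Figure D1:**
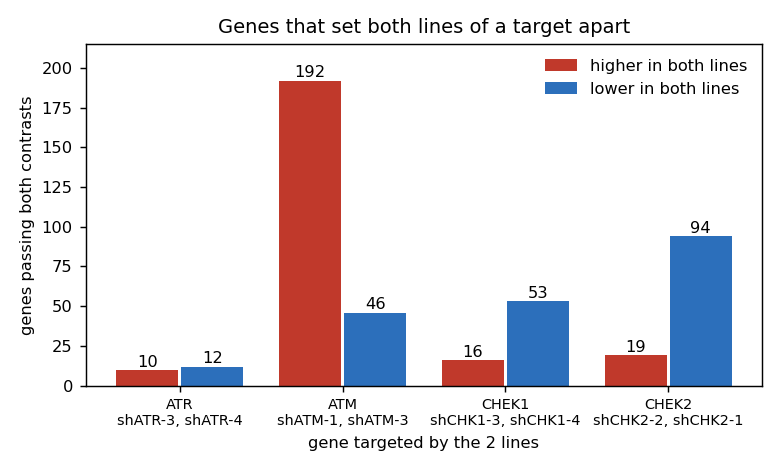
Number of genes that passed both comparisons of a target's lines with the same sign, out of 11048 tested (vertical axis), by targeted gene (horizontal axis). Red bars are genes higher in both lines of the target and blue bars are genes lower; ATR has 10 and 12, and ATM has 192 and 46.

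The 22 genes differed by modest amounts. Absolute log2 differences ran from 0.27 to 0.94 for shATR-3 and from 0.23 to 0.98 for shATR-4. Each ATR line mean was set against the means of its own 3 matched lines, which gives 6 line comparisons per gene. The counted direction held in all 6 for 14 genes, in 5 for 7 genes and in 4 for LRIG1. The arrays did not overlap with the 9 matched arrays in both states for 2 genes, in 1 state for 10 genes and in neither state for 10 genes. These counts follow in part from how the genes were chosen and are a description. The share over all genes was taken only for no overlap in both states. Over all genes tested, 3 (0.0272%) had the arrays of both ATR lines on the same side of all their matched arrays, and 2 of these were among the 22. The genes lie on 16 chromosomes, with at most 3 on 1 of them (chromosome 12).

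**Figure D2:**
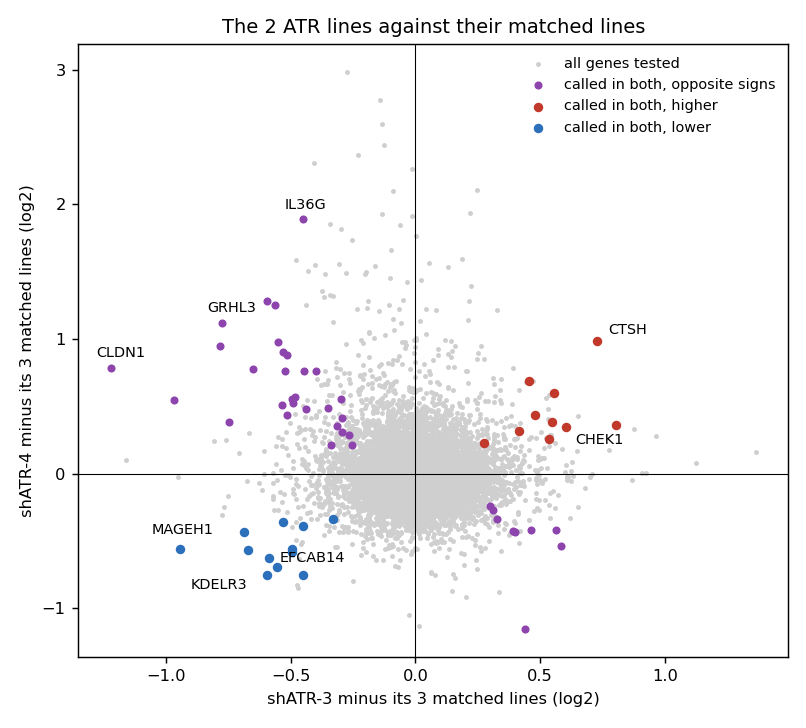
Log2 difference of shATR-3 from its 3 matched lines (horizontal axis) and of shATR-4 from its own (vertical axis), 1 point per gene for 11048 genes. Red and blue points are the 10 higher and 12 lower genes counted, and purple points are the 38 genes called with opposite signs, of which 29 lie at the upper left.

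The lower genes included KDELR3, which encodes a receptor that returns escaped resident proteins from the Golgi to the endoplasmic reticulum. Its log2 signal was 8.42, 8.68 and 8.71 on the shATR-3 arrays, against a lowest, median and highest value of 8.75, 9.34 and 9.51 on the 9 matched arrays. It was 9.75, 9.91 and 9.92 on the shATR-4 arrays, against 10.23, 10.41 and 11.14 on the matched arrays. Matched arrays are given in this way, as lowest, median and highest, for the genes that follow. In both states all 3 ATR arrays of KDELR3 were lower than all 9 matched arrays, and the nearest matched line to shATR-3 was shCHK2-2, with a mean of 8.85. The log2 difference was -0.60 ± 0.08 (SE) for shATR-3 and -0.75 ± 0.08 for shATR-4. That is 1.51-fold and 1.68-fold lower. Both further KDELR3 probes, above background on all 24 arrays, had log2 differences of -0.64 and -0.48 for shATR-3 and of -0.73 and -0.63 for shATR-4. All 3 probes therefore gave the same direction in both states. KDELR3 was no extreme over the whole study, since its mean was 6.49 in sh53BP1-1, 7.17 in sh53BP1-2, 8.38 in shControl and 8.62 in wild type cells.

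EFCAB14, a gene for a protein with calcium-binding EF-hand motifs, was the other gene with no overlap in either state. Its log2 signal was 8.82, 8.92 and 8.84 on the shATR-3 arrays, against 9.25, 9.43 and 9.75 (lowest, median, highest) on the matched arrays. On the shATR-4 arrays it was 9.19, 9.10 and 9.04, against 9.26, 9.88 and 10.09 on the matched arrays. The highest shATR-4 array thus lay just below the lowest matched array, which was from shCHK1-4. The log2 difference was -0.59 ± 0.08 for shATR-3 and -0.63 ± 0.08 for shATR-4. EFCAB14 was also lower in both ATR lines than in each of the other 10 groups, whose means ran from 9.33 in shCHK1-4 to 9.95 in shATM-3 and included 9.93 in shControl and 9.83 in wild type cells.

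SMCO4, which encodes a small single-pass membrane protein, was the other gene with both ATR lines below all of the other 10 groups. Its signal was 7.41, 7.85 and 7.75 in shATR-3, against 7.80, 8.24 and 8.45 on the matched arrays. For shATR-4 the values were 7.61, 7.81 and 7.78, against 7.71, 8.48 and 9.27. The arrays overlapped in both states, with shCHK2-2 and shATM-3 (mean 7.82) the nearest lines. The log2 differences were -0.55 ± 0.10 and -0.69 ± 0.10 for shATR-3 and shATR-4. Outside the kinase lines the mean lay between 9.18 in shControl and 9.79 in wild type cells.

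**Figure D3:**
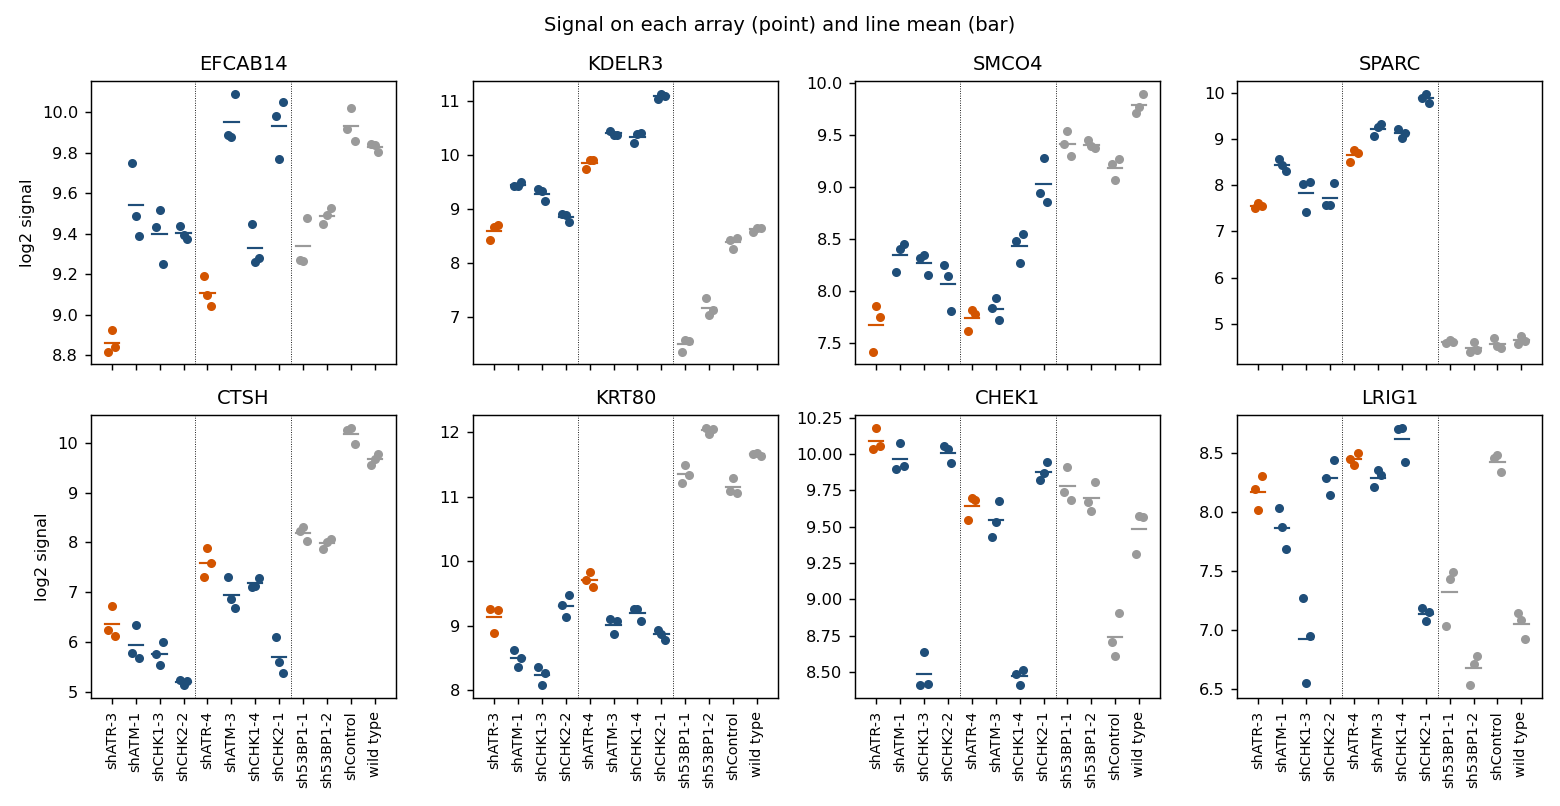
Log2 signal (vertical axis) on each of 36 arrays for 8 of the 22 genes, by group (horizontal axis), with points for arrays and bars for group means. Orange marks the ATR lines, blue the lines matched to them within each dotted section, and grey the groups outside the comparison; EFCAB14 and KDELR3 show no overlap between orange and blue within a section, and CHEK1 shows both shCHK1 lines low.

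SPARC encodes a secreted glycoprotein that binds collagen and calcium. It was 7.50, 7.61 and 7.55 in shATR-3, against 7.41, 8.05 and 8.56 on the matched arrays. Values in shATR-4 were 8.49, 8.76 and 8.70, against 9.02, 9.25 and 9.97. The arrays were apart for shATR-4 only, since 1 shCHK1-3 array lay below all shATR-3 arrays. The log2 difference was -0.45 ± 0.11 for shATR-3 and -0.75 ± 0.11 for shATR-4. SPARC was above background on all 24 arrays of the kinase lines and on 0 of the 12 arrays of the other groups. Its signal was at least 4.15-fold higher in shATR-3, and at least 8.89-fold higher in shATR-4, than in sh53BP1-1, where its mean was 4.61. Against wild type these bounds were 4.90-fold and 10.5-fold. Each bound sets the ATR line's mean against the lowest signal above background on the dimmer arrays.

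GOLT1B encodes a Golgi vesicle transport protein. Its signal was 9.64, 9.50 and 9.52 in shATR-3, against 9.68, 9.85 and 10.19 on the matched arrays. In shATR-4 it was 10.21, 10.04 and 10.11, against 10.13, 10.42 and 10.76. The arrays were apart for shATR-3 and overlapped for shATR-4. The difference was -0.33 ± 0.09 in both comparisons, the smallest among the 12 lower genes. WIPI1, whose protein binds phosphoinositides on forming autophagosomes, was 5.36, 5.94 and 5.89 in shATR-3, against 5.99, 6.57 and 6.96 on the matched arrays. The shATR-4 arrays gave 7.78, 7.66 and 7.68, against 7.58, 8.26 and 8.61. The shATR-4 arrays overlapped with those of shCHK1-4 (mean 7.65), and only 2 of 3 shATR-3 arrays were above background. The WIPI1 difference was -0.69 ± 0.12 for shATR-3 and -0.43 ± 0.12 for shATR-4.

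ANG encodes angiogenin, a secreted ribonuclease, and SNORD13 is a small nucleolar RNA that acts on 18S ribosomal RNA. ANG was 5.48, 5.75 and 5.53 in shATR-3, against 5.69, 6.24 and 6.36 on the matched arrays. For shATR-4 the values were 6.78, 6.46 and 6.61, against 6.62, 6.89 and 7.27. SNORD13 was 6.76, 6.26 and 6.42 in shATR-3, against 6.41, 7.12 and 7.61. In shATR-4 it was 7.27, 7.18 and 7.34, against 7.40, 7.89 and 7.99. ANG overlapped in both states, and SNORD13 was apart in shATR-4 only. The ANG differences were -0.53 ± 0.10 for shATR-3 and -0.36 ± 0.10 for shATR-4, and a second probe (above background on 15 of 24 arrays) gave -0.34 and -0.65. The SNORD13 differences were -0.67 ± 0.13 and -0.57 ± 0.13. SNORD13 was lower in each ATR line than in each of its own 3 matched lines, by 0.42 to 1.01.

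The remaining lower genes were MAGEH1, PDLIM3, TMEM45A and CCDC92. MAGEH1, of the MAGE protein family, had the largest lower difference in shATR-3, at -0.94 ± 0.16, and -0.56 ± 0.16 in shATR-4. Its signal was 4.94, 5.94 and 5.20 in shATR-3, against 5.95, 6.32 and 6.75 on the matched arrays. Only 1 of the 3 shATR-3 arrays was above background for MAGEH1, so the level there is near the limit of the assay. Its second probe was above background on 2 of 24 arrays and gave no usable reading. In shATR-4 MAGEH1 was 6.07, 6.26 and 6.36, against 6.17, 6.56 and 7.65, and the arrays overlapped. PDLIM3, a PDZ and LIM domain protein of the actin cytoskeleton, differed by -0.49 ± 0.12 for shATR-3 and by -0.56 ± 0.12 for shATR-4. Its second probe, above background on 16 of 24 arrays, gave -0.14 and -0.37. PDLIM3 was dim in the 8 kinase lines (means 5.48 to 6.67) and not above background on any of the 12 arrays of the other groups. TMEM45A, a transmembrane protein gene, differed by -0.49 ± 0.13 and -0.58 ± 0.13, with a second probe at -0.49 and -0.51. The shATR-3 arrays of TMEM45A (7.33 to 7.43) lay below all matched arrays (lowest 7.54), and the shATR-4 arrays (7.58 to 7.89) overlapped with them (lowest 7.86). CCDC92, a coiled-coil protein gene, differed by -0.45 ± 0.10 and -0.39 ± 0.10. In the shATR-3 comparison it was lower than in shATM-1 and shCHK1-3 but higher than in shCHK2-2, by 0.28.

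Among the higher genes CTSH, which encodes the lysosomal cysteine protease cathepsin H, had the largest difference in shATR-4. Its log2 signal was 6.23, 6.72 and 6.12 in shATR-3, against 5.13, 5.68 and 6.34 on the matched arrays. The corresponding shATR-4 values were 7.31, 7.88 and 7.58, against 5.38, 6.85 and 7.30. The arrays were apart in shATR-4, by less than the spread of its own arrays, and overlapped in shATR-3. The difference was 0.73 ± 0.15 for shATR-3 and 0.98 ± 0.15 for shATR-4. CTSH was not above background in shCHK2-2, so the shATR-3 level there is given only as at least 1.90-fold higher. In the groups outside the kinase lines CTSH was brighter than in either ATR line, with means of 7.98 to 10.18.

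CEMIP encodes a protein that binds and helps to degrade hyaluronan. It was 6.19, 6.02 and 6.34 in shATR-3, against 4.75, 5.66 and 6.31 on the matched arrays, and 8.41, 8.36 and 8.46 in shATR-4, against 7.43, 7.91 and 8.10. Only the shATR-4 arrays were apart from all matched arrays. The log2 difference was 0.56 ± 0.14 for shATR-3 and 0.60 ± 0.14 for shATR-4. The shCHK2-2 arrays were not above background, and shATR-3 was at least 1.69-fold higher than them.

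KRT80, a type II epithelial keratin, was 9.26, 8.90 and 9.24 in shATR-3, against 8.08, 8.51 and 9.47. The shATR-4 arrays gave 9.72, 9.83 and 9.61, against 8.78, 9.08 and 9.26. The shATR-4 arrays were apart, while shATR-3 (mean 9.13) lay below shCHK2-2 (mean 9.31). The KRT80 difference was 0.45 ± 0.09 for shATR-3 and 0.69 ± 0.09 for shATR-4. A second probe gave 0.37 and 0.57, but it was near background (above it on 16 of 24 arrays, mean 5.56). The mean of KRT80 was between 11.15 and 12.04 in the other groups, above both ATR lines.

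CHEK1 was the only gene of ATR signalling among the 22, and its place depended on the CHEK1 lines. It encodes the main kinase that ATR activates. Its signal was 10.04, 10.18 and 10.05 in shATR-3, against 8.41, 9.92 and 10.08 on the matched arrays. In shATR-4 it was 9.55, 9.70 and 9.68, against 8.41, 9.54 and 9.95. The lines with hairpins against CHEK1, shCHK1-3 and shCHK1-4, had means of 8.49 and 8.47, while the other matched lines had means from 9.55 to 10.01. The differences of 0.60 ± 0.08 and 0.34 ± 0.08 became 0.10 and -0.07 when the CHEK1 lines were left out of the matched lines, and CHEK1 was then not counted. Outside the kinase lines its mean was 8.74 in shControl and 9.48 in wild type cells. ATM (0.40 ± 0.13 and 0.20 ± 0.13) and CHEK2 (0.50 ± 0.16 and 0.31 ± 0.16) are likewise set against lines with hairpins to themselves, and neither was counted, nor was TP53BP1 (-0.09 ± 0.12 and -0.12 ± 0.12).

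CD70, a ligand of the TNF family that engages CD27, was 7.56, 8.15 and 7.82 in shATR-3, against 6.54, 7.04 and 7.58 on the matched arrays. Values in shATR-4 were 7.07, 7.06 and 6.69, against 6.14, 6.56 and 7.07. The arrays overlapped in both states. Its difference was 0.80 ± 0.11 for shATR-3 and 0.36 ± 0.11 for shATR-4, and its means in the other groups were between 9.60 and 11.21. LRIG1, an inhibitor of EGFR family receptors, differed by 0.48 ± 0.11 and 0.44 ± 0.11, with a second probe at 0.41 and 0.51. The ATR line means of 8.17 and 8.45 stood well above 2 lines, shCHK1-3 (6.92) and shCHK2-1 (7.14), while the other matched lines (7.86 to 8.62) lay on both sides of them.

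TMEM200A, a transmembrane protein gene, differed by 0.55 ± 0.11 in shATR-3 and 0.38 ± 0.11 in shATR-4. It was not above background in either CHEK2 line, and the ATR lines were at least 1.39-fold (shATR-3) and 1.97-fold (shATR-4) higher than them. In shATR-4 (mean 6.35) it was lower than in shCHK1-4 (mean 6.83). AFG3L2, a subunit of the protease of the inner mitochondrial membrane, differed by 0.41 ± 0.08 and 0.31 ± 0.08. For AFG3L2 each ATR line was above all 3 of its own matched lines. CCNA1, which encodes cyclin A1, differed by 0.54 ± 0.07 and 0.26 ± 0.07. Its mean in shATR-4 (10.16) was below that in shCHK2-1 (10.34). RDH10, a retinol dehydrogenase that makes retinaldehyde, had the smallest differences, 0.27 ± 0.07 and 0.23 ± 0.07, and lay at 8.20 in shATR-3 beside 8.23 in shCHK2-2.

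**Figure D4:**
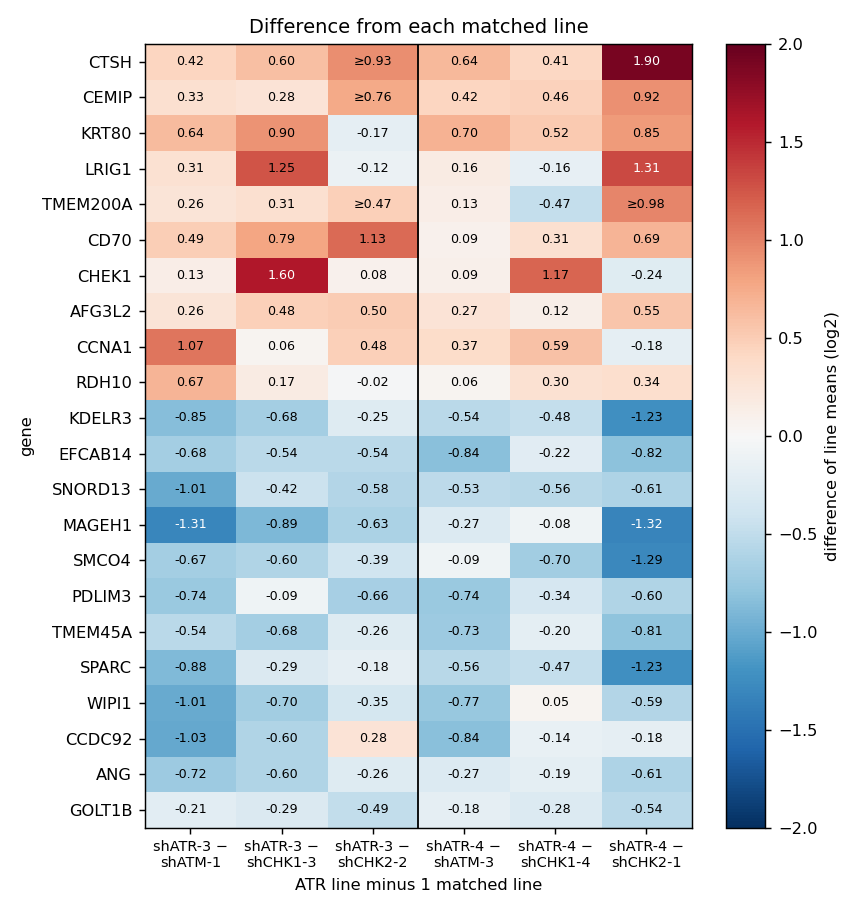
Difference of line means (log2, colour scale) between an ATR line and each matched line (columns) for the 22 genes (rows). Red is higher and blue is lower in the ATR line, and ≥ marks a lower bound where the matched line was not above background. In all 6 columns 14 rows keep their sign, and CHEK1 has 1.60 and 1.17 in the shCHK1 columns against -0.24 to 0.13 elsewhere.

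Which genes were counted depended on the comparators. Without the ATM lines 14 of the 22 were still counted, without the CHEK1 lines 15, and without the CHEK2 lines 10. KDELR3, EFCAB14 and SMCO4 were the 3 genes counted in each of these cases. When a single array was left out at a time, in 24 fits, CHEK1, KDELR3 and EFCAB14 were counted in all 24, and RDH10 in 10. The number counted ran from 13 without replicate 1 of shATR-4 to 37 without replicate 2 of shCHK1-3. With lines in place of arrays as the unit, 2 ATR lines against 6, limma with the state as a term called 0 genes (0%) after adjustment. At an unadjusted p under 0.05 it gave 232 genes (2.1%), of which 16 were among the 22. That fit uses means of the same arrays by which the 22 were chosen, so the 16 are a description and no support.

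Just inside the threshold lay GOLT1B and CD70, with a larger adjusted p of 0.0411 and 0.0430 in limma. Just outside it lay PYCR1, an enzyme of proline synthesis, and MAGED1, of the MAGE family, at 0.0506 and 0.0509. PYCR1 differed by -0.47 ± 0.12 for shATR-3 and -0.63 ± 0.12 for shATR-4, and MAGED1 by -0.28 ± 0.08 and -0.39 ± 0.08. Both are therefore close in size to genes that were counted.

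Genes of the ATR pathway, of other cell processes and of cell type markers were examined in 24 lists with 484 genes tested. Only CHEK1, an effector of ATR, and SPARC, from the mesenchymal and fibroblast list, were counted (1 higher and 1 lower). Over all genes tested 0.199% were counted, so a count of 0 in lists of these sizes says nothing particular about them. Of 16 genes that activate ATR, 0 were counted, and their median differences were 0.05 for shATR-3 and -0.02 for shATR-4, against -0.0035 and 0.0010 over all genes tested. ATRIP differed by -0.05 ± 0.11 and 0.14 ± 0.11, TOPBP1 by -0.04 ± 0.11 and -0.03 ± 0.11, and ETAA1 by 0.10 ± 0.11 and -0.01 ± 0.11. RFC4, a subunit of the clamp loader, was the only gene of that list to pass in either line alone (-0.23 ± 0.06 in shATR-4 and 0.16 ± 0.06 in shATR-3). Of 15 effectors and fork protection genes, CHEK1 alone was counted. WEE1, the kinase that holds CDK1 inactive, differed by 0.18 ± 0.10 and -0.05 ± 0.10, and the fork protection gene TIMELESS by 0.12 ± 0.08 and 0.07 ± 0.08. None of the 10 genes of the ATM-CHK2 branch was counted, and none of 31 genes of replication and G1/S, 33 of mitosis and G2/M, 19 of homologous recombination or 12 of the Fanconi pathway. For mitosis and G2/M the median differences were 0.04 and -0.06. The 24 p53 target genes tested also gave 0 counted genes. In each of these lists other than the effectors, 7 in all, 0 genes had an unadjusted p under 0.05 in both lines with the same sign in limma. Over all genes tested 153 of 11048 did, so a 0 in lists of these sizes again says nothing particular about them.

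The 2 ATR lines were further apart from each other than these shared genes show. The test of the difference between the 2 comparisons, which the rule did not use, passed for 564 genes (5.1%) in limma. The same test passed for 862 genes for the ATM lines, 1308 for the CHEK1 lines and 1109 for the CHEK2 lines. Such a gap between the lines of a target was thus not particular to ATR, which had the lowest of these counts. Of 22 keratinocyte differentiation genes tested, such as those for cornified envelope proteins, 19 were higher in shATR-4 than in its matched lines (5.11% over all genes tested). Members could pass the filter through groups where they are bright: 14 of the 22 were above background on all 12 arrays of this comparison, and 13 of those 14 were higher. On all 24 kinase arrays 8 were above background, and 7 of those 8 were higher. In shATR-3, 0 of the 22 were higher, also at an unadjusted p under 0.05 in limma, which 522 of all 11048 genes tested reached. KRT16, a keratin of stressed epidermis, was lower there (-0.35 ± 0.08) and higher in shATR-4 (0.49 ± 0.08). The median difference of the list was -0.12 for shATR-3 and 1.53 for shATR-4, and for 18 of the 22 the 2 comparisons differed (7 of the 8 above background on all 24 arrays). S100A7 (psoriasin) differed by -0.28 ± 0.18 for shATR-3, where 2 of 3 arrays were above background, and by 2.98 ± 0.18 for shATR-4. KRT13, a keratin of stratified epithelium, had a mean of 8.40 in shATR-4, against 6.34 in shATM-3 and 6.75 in shCHK2-1. In shCHK1-4 KRT13 was not above background, and shATR-4 was at least 8.42-fold higher. It was not above background in shATR-3, so that comparison gives no reading for KRT13.

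The matched lines of shATR-4 varied widely for this list. The median log2 level of its 22 genes was 10.0 in shATR-4, against 7.35 in shATM-3, 6.23 in shCHK1-4 and 7.99 in shCHK2-1. In shATR-3 it was 5.53, against 5.52 in shATM-1, 5.71 in shCHK1-3 and 5.61 in shCHK2-2. These levels are near background, where the lowest signal above it lay between 5.19 and 5.58 on an array: 10 of the 22 genes were above background on none of the shATR-3 arrays, against 10 in shATM-1, 9 in shCHK1-3 and 10 in shCHK2-2. It was 8.01 and 8.64 in sh53BP1-1 and sh53BP1-2, 8.39 in shControl and 8.17 in wild type cells. Leaving out the ATM, CHEK1 or CHEK2 line gave median differences of 1.75, 1.09 and 1.80 for shATR-4, with 20, 18 and 19 genes higher.

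**Figure D5:**
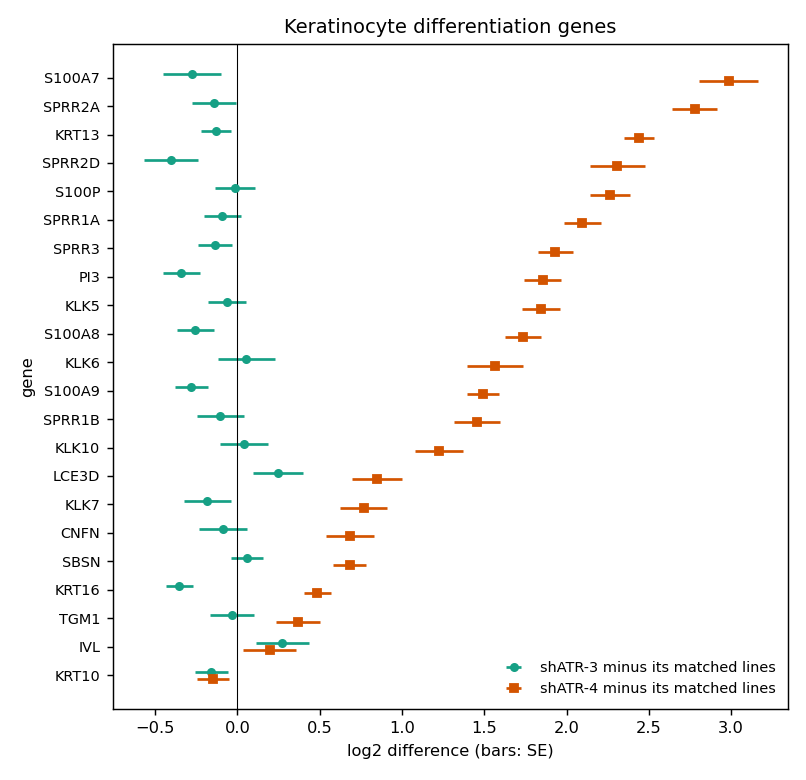
Log2 difference from the matched lines (horizontal axis; bars are SE) for 22 keratinocyte differentiation genes (vertical axis), with circles for shATR-3 and squares for shATR-4. The squares reach 2.98 for S100A7 and 19 of 22 passed the test, while the circles stay between -0.41 and 0.27. Of the 22 genes, 8 were above background on all 24 arrays, and 10 were on none of the shATR-3 arrays.

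The largest tested differences between the 2 comparisons, among genes above background on all 24 arrays, were in IL36G, S100P, PI3, SPRR1A, MMP9 and CLDN1. IL36G, an epithelial interleukin-1 family cytokine, was 6.13, 6.67 and 6.29 in shATR-3, against matched means of 6.36 to 7.08. The corresponding shATR-4 values were 11.04, 10.99 and 10.66, against 7.42, 9.33 and 10.12 (lowest, median, highest) on the matched arrays. The shATR-4 arrays lay above all matched arrays. IL36G differed by -0.45 ± 0.12 and 1.89 ± 0.12, and the difference between the comparisons of -2.34 ± 0.17 had an adjusted p of 3.9e-11 in limma. S100P, a calcium-binding protein, differed by -0.01 ± 0.12 and 2.26 ± 0.12. PI3, an elastase inhibitor, differed by -0.34 ± 0.11 and 1.85 ± 0.11. SPRR1A, a cornified envelope precursor, differed by -0.09 ± 0.11 and 2.10 ± 0.11. For MMP9, a gelatinase, the values were -0.30 ± 0.15 and 1.82 ± 0.15. Each of these 4 passed in shATR-4 and not in shATR-3, and the difference between the comparisons had an adjusted p between 3.9e-11 and 1.3e-08 in limma. IL36G passed in both, with opposite signs. All genes of this paragraph were chosen by the size of that difference, so its value and adjusted p are a description.

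Of the 38 genes called with opposite signs, 29 were lower in shATR-3 and higher in shATR-4 and 9 the reverse. CLDN1, the gene of the tight junction protein claudin-1, ranked first by the smaller of its 2 absolute differences. It was 8.33, 7.76 and 8.20 in shATR-3, against 8.73, 9.42 and 9.74 on the matched arrays. In shATR-4 it was 10.83, 10.68 and 10.65, against 9.16, 9.82 and 10.86. The shATR-3 arrays lay below all matched arrays, while the shATR-4 arrays overlapped with shATM-3. GRHL3, a transcription factor of epidermal barrier formation, differed by -0.77 ± 0.12 and 1.12 ± 0.12. Its shATR-3 mean of 6.35 was beside 6.42 in shCHK2-2 and below 7.20 in shATM-1 and 7.76 in shCHK1-3. The shATR-4 mean of 8.90 was above all its matched lines (6.92 to 8.35). CYFIP2, a subunit of the WAVE actin regulator, had a mean of 5.31 in shATR-3, with 1 of 3 arrays above background, against 6.43 in shATM-1, 6.11 in shCHK1-3 and 5.73 in shCHK2-2. In shATR-4 its mean was 6.59, below the 7.33 of shATM-3. CYFIP2 was at least 2.41-fold higher in shATR-4 than in shCHK1-4 and at least 2.32-fold higher than in shCHK2-1, and in both of those lines it was not above background. MARCKSL1, SGPP2 and LCP1 were likewise lower in shATR-3 and higher in shATR-4. The MARCKSL1 mean in shATR-4 was 7.21, against 6.96 in shATM-3, 6.91 in shCHK2-1 and 5.43 in shCHK1-4. In shATR-3 MARCKSL1 was above background on 2 of 3 arrays and LCP1 on 1 of 3, so their levels there are near background. For these 6 genes the difference between the lines is part of how they were chosen.

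By the number of genes higher in shATR-4, which also depends on the size of a list, interferon response genes came second among the 24 lists. Of 33 tested, 16 were higher in shATR-4 than in its matched lines (5.11% over all genes tested) and 0 in shATR-3 (3 at an unadjusted p under 0.05 in limma), with median differences of -0.02 for shATR-3 and 0.38 for shATR-4. For 11 of the 33 the 2 comparisons differed. Above background on all 12 arrays of the shATR-4 comparison were 25, of which 12 were higher. SAMD9, an interferon-induced gene, was lower in shATR-3 (-0.40 ± 0.09), the only interferon gene called there, and higher in shATR-4 (0.76 ± 0.09). Its mean was 8.24 in shATR-3, against 8.60 in shATM-1, 9.02 in shCHK1-3 and 8.31 in shCHK2-2. In shATR-4 it was 10.51, level with 10.51 in shATM-3 and above 8.73 in shCHK1-4 and 10.02 in shCHK2-1. MX1, an antiviral GTPase, had a mean of 6.59 in shATR-4, against 6.99 in shATM-3, and was at least 2.41-fold higher in shATR-4 than in shCHK1-4 and at least 2.32-fold higher than in shCHK2-1, both without signal above background. MX1 was not above background in shATR-3 or its matched lines. OAS1, an RNA sensor, had a mean of 7.06 in shATR-4, against 6.97 in shATM-3, 5.79 in shCHK1-4 and 6.07 in shCHK2-1. Of 14 luminal epithelial markers, 8 were higher in shATR-4 (5.11% over all genes tested) and 0 in shATR-3 (also 0 at an unadjusted p under 0.05 in limma). Among the 8 were ELF3 (-0.04 ± 0.11 for shATR-3 and 0.93 ± 0.11 for shATR-4) and KRT8 (-0.21 ± 0.10 and 0.64 ± 0.10). On all 12 arrays of the shATR-4 comparison 9 of the 14 were above background, and 6 of those 9 were higher. Of 13 mesenchymal and fibroblast markers, 2 were higher in shATR-4 (TAGLN, 0.55 ± 0.17, and FAP, 0.42 ± 0.11) and 4 were lower (VIM, TWIST1, SNAI2 and SPARC), with a median difference of -0.12. Over all 11048 genes tested, 565 were higher and 323 lower. On all 12 arrays of that comparison 8 of the 13 were above background, of which 1 was higher and 4 were lower. In shATR-3, 0 of the 13 were higher and 2 were lower, against 82 and 91 over all genes tested. TAGLN was near background, with a mean of 5.72 in shATR-4 and only 1 of 3 arrays above background in shCHK1-4 and in shCHK2-1. FAP had a mean of 7.37 in shATR-4, below the 7.46 of shCHK2-1. VIM, the filament gene vimentin, differed by -1.13 ± 0.09 in shATR-4 and by 0.01 ± 0.09 in shATR-3. These marker differences stand beside those of the keratinocyte genes in shATR-4, and their part in the other differences of that line was not tested.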

How the data were processed

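The deposited signal file holds probe intensity that was neither normalized nor background corrected, per the file headers and the values. Beside each intensity stands a detection p-value for the same probe and array, per the file headers, in steps of 1 part in 770. A deposited table of log2 values equals the quantile-normalized log2 signals to within 0.0013. Slide, scanner and genome build are not given in the sources used here, so slides could not be tested as batches.

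The neqc function of limma 3.58.1 (offset 16, R 4.3.3) did the background correction, quantile normalization and log2 step. A probe was kept if its detection p fell under 0.01 on every array of some group. Of 47231 probes, 30113 had 1 gene name, 8 had several and 17110 had none, from the platform annotation checked against RefSeq, and 4033 of the 18905 detected probes had no single name. The brightest probe stood for each gene, which left 11048 genes. The linear model estimated a mean for each of the 12 groups from the 36 arrays together, with Benjamini-Hochberg adjustment over all genes in each contrast, and errors are the model's SE. Tests were tried on simulated data. Figures used matplotlib 3.10.9.

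The members, the lists and the tests were chosen with earlier results of these data known. The rule for named genes took the targeted genes, counted genes with no overlap of arrays in both states (2 genes), counted list members, genes beside the threshold, and up to 6 genes each with opposite signs or with the largest tested difference. The other counted genes, and the examples from lists, fall outside that rule and were named after their values were seen. Alternatives were the deposited values, other filters, every probe, only the 24 kinase arrays, the replicate number as a block, other comparators, a minimum size, lines as units and each array left out. The counts for ATM, CHEK1, CHEK2 and the keratinocyte list under them were added after the data were seen. The number of arrays limits the precision.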

Additional observations from a re-analysis of the deposited data

Results flagged for a closer look

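Differences between the 2 ATR comparisons (shATR-3 minus its matched lines, less shATR-4 minus its own, on the log2 scale) are given here for the genes named in the text, because limma's test of that difference passed for each. The values were -2.34 for IL36G, -2.28 for S100P, -2.20 for PI3, -2.19 for SPRR1A, -2.12 for MMP9 and -2.01 for CLDN1. They were -1.89 for GRHL3, -1.88 for SGPP2, -1.81 for LCP1, -1.73 for CYFIP2 and -1.43 for MARCKSL1. The CYFIP2 value includes 2 matched lines that were not above background. In shATR-3 CYFIP2 and LCP1 were above background on 1 of 3 arrays and MARCKSL1 on 2 of 3. All 11 genes had their higher difference in shATR-4. The last 5 and CLDN1 were selected for opposite signs in the 2 comparisons. IL36G, S100P, PI3, SPRR1A, MMP9 and again CLDN1 were selected for the largest difference that passed this test. IL36G was also called with opposite signs in the 2 comparisons. For all 11 genes the difference is therefore a description.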

How the results depend on the processing

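The 22 counted genes became 26 with the deposited log2 values (and likewise without background correction, which gives the same values), 18 with no filter on dim probes, 16 with genes above background on all 36 arrays, 23 with every probe counted and 17 with only the 24 kinase arrays. Of these, 16, 18, 14, 21 and 16 were among the 22. Without the CHEK1 lines 35 genes were counted, against all 6 lines of the other kinases without matching 42 (7 of the 22), with a log2 difference of at least 0.6 only 1, and with lines as units 0. Without matching, shATR-3 gave 2771 genes, shATR-4 gave 2716, their difference 4528 and the CHEK1 count 153, since the comparison then spans both states. With the size limit, shATR-3 gave 43 genes, shATR-4 228, their difference 330, ATM 30, CHEK1 6 and CHEK2 16. Above background on all 36 arrays, the difference gave 354 genes and the keratinocyte list 7, as fewer genes were tested (8064). With an array left out at a time, counts ran from 13 to 37 for ATR (highest without replicate 2 of shCHK1-3), 91 to 252 for shATR-3, 493 to 1046 for shATR-4, 358 to 714 for the difference, 19 to 20 for the keratinocyte list, 143 to 265 for ATM, 43 to 78 for CHEK1 and 66 to 136 for CHEK2. Causes of these changes were otherwise not tested. Replicate numbers did not pair the arrays (mean residual correlation 0.0225 for the same number, -0.0111 for others). With the replicate number as a block 22 genes were counted, 21 of them among the 22, and no count moved by over 1.5 times. For counted and targeted genes the mean of both ATR differences, and for the others named the difference between them, was followed: 1150 values under alternatives kept the call, 145 lost it, 21 gained it and 0 called values reversed. In a single comparison signs did change, for CHEK1 without the CHEK1 lines and for LRIG1 and TMEM200A without the CHEK2 lines, and without matching 16 of the 22 genes kept their sign in both. Dim genes such as MAGEH1, PDLIM3 and TMEM200A lie near background, which limits their reading.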
